A study of Rattus norvegicus with 9 samples.

Results

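Rat cortical neurons in primary culture that received a short hairpin RNA aimed at Pumilio2 (shPum2, 3 libraries) were compared with neurons that received a control hairpin (shControl, 3 libraries), which makes 6 of the 9 libraries of the study. The 6 were chosen by their sample titles. The neurons were grown for 14 days. Lentivirus carrying the hairpin was added on day 10 and left for the last 4 days, so both groups share the transduction and its timing. The third group, shStau2, carried a hairpin aimed at Staufen2. It entered the same statistical fit and is given below only where a row is described. Poly(A) RNA was sequenced with a directional kit, and nothing in the labels ties a replicate to a culture of its own, so the p-values below measure only the spread between these libraries, which may be technical. The sequence of neither hairpin is given in the sources used here.

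Pumilio2 is an RNA-binding protein of the PUF family. It recognises a short UGUA-containing element in the 3' untranslated region of mRNAs, recruits the CCR4-NOT deadenylase, and thereby lowers the stability and the translation of its targets. In neurons it is found in RNA granules of the cell body and dendrites and is known for restraining excitability and dendritic outgrowth. The comparison asks which transcripts change in level when Pumilio2 is targeted. A change in translation alone leaves no trace in such data.

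The unit described here is a row of the count files, which carries an Ensembl rat gene identifier and no gene name. None of the 32883 identifiers (0 matched) could be paired with a symbol, so the level of Pum2 itself, neuronal and glial markers, and named gene groups are not analysed here. Reads assigned to gene rows made up 1.76% to 2.14% of the reads listed in the 6 libraries, between 779386 and 979550 counts per library. No-feature reads made up a mean of 87.4% in shControl and 87.2% in shPum2, and unmapped reads 2.56% and 2.73%. The strand on which reads were counted is not known. A value below is thus a count of reads assigned to a row on the counted strand, which may not be the strand of the mRNA. The share of reads in gene rows was 1.99% ± 0.20 in shControl and 1.94% ± 0.16 in shPum2 (SD, n = 3 each). For it and the shares of unmapped, multimapping, no-feature and ambiguous reads no difference between the groups passed a test (exact permutation test, two-sided, 5 tests, p from 0.2 to 0.8, Benjamini-Hochberg adjusted p from 0.75 to 0.8, where 3 against 3 libraries cannot go below 0.1).

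The libraries of shPum2 varied more among themselves than those of shControl, and shPum2 replicate 1 stood apart from its group. Across the 5697 rows that passed the filter on low counts, the 3 pairs of control libraries had a median absolute difference of 0.33 to 0.38 on the log2 CPM scale (CPM relates a count to the TMM-scaled sum over the rows kept in that library). Replicates 2 and 3 of shPum2 differed from each other by 0.34, but replicate 1 differed from them by 0.47 and 0.48. It differed less from the 3 control libraries, by 0.32, 0.33 and 0.38. Replicates 2 and 3 of shPum2 differed from the control libraries by 0.36 to 0.45. In Spearman correlation across rows, which are not independent replicates, replicate 1 reached 0.858 to 0.880 with the controls and 0.806 and 0.811 with its own group. The standard deviation within shPum2 exceeded that within shControl in 3372 of 5697 rows (59.2%), with a median of 0.37 against 0.31 log2 units. Several of the results are therefore also given without replicate 1.

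**Figure D1:**
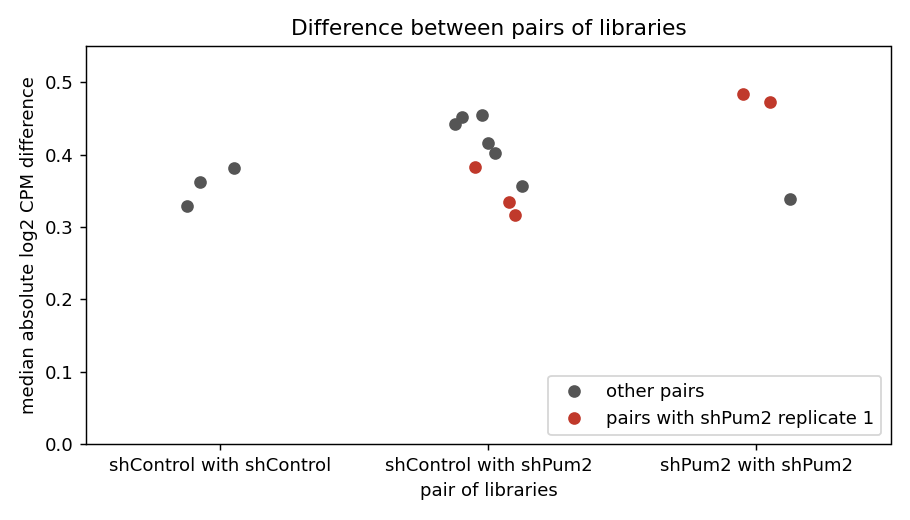
Median absolute log2 CPM difference between the 2 libraries of each of the 15 pairs among the 3 shControl and 3 shPum2 libraries, 1 point per pair. The pairs of shPum2 replicate 1 with its own group lie at 0.47 and 0.48, above its pairs with the controls at 0.32 to 0.38.

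With the control hairpin as the reference, 1 row of 5697 rose and 0 fell in shPum2 (0.0176% called, edgeR quasi-likelihood test, Benjamini-Hochberg adjusted p under 0.05). With no change in any row, an average share of 0.05 of rows is expected at an unadjusted p under 0.05. The main fit gave fewer, 112 rows (1.97%), so this count alone shows no change. Of these, 48 were higher and 64 lower in shPum2. The number at that level was 363 of 6226 rows without shPum2 replicate 1 and 74 and 71 without replicate 2 or 3. It was 258 of 6334 rows without shStau2 replicate 3, whose mean Spearman correlation with its own group, 0.729, was the lowest of the 9 libraries. DESeq2 called 2 rows higher and 1 lower, limma-voom 1 higher and 0 lower, and limma-voom with library quality weights 1 of each. At an unadjusted p under 0.05 these 3 tests gave 63, 98 and 447 rows. In 483 rows (8.48%) no shPum2 library fell within the range of the controls or the reverse, 237 of them (4.16%) higher and 246 (4.32%) lower in shPum2. For 3 against 3 exchangeable libraries the probability of such separation is 0.1, so this count alone shows no change. In bulk RNA, fewer cells of a type and less RNA per cell cannot be told apart, which holds for every difference given here. The median log2 difference was -0.01 over all rows, and between -0.04 and 0.03 in each of 6 classes of abundance. The scaling between libraries centres most rows near 0, so these medians cannot show whether all rows shifted together, and each difference is relative to the other rows.

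How large a change the data exclude was read from the 95% interval of each row's log2 difference, taken from the same fit. The margin, the distance from the estimate to either end of the interval, had a median of 0.85 log2 units over all rows, or 1.81-fold. It narrowed with abundance. In the 301 rows under 10 CPM, which held a median of 7.5 counts per library, the median margin was 1.35 (2.54-fold). In the 2910 rows of 10 to 30 CPM, the largest class with a median of 14 counts, it was 0.96 (1.94-fold).

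The margin was 0.73 (1.66-fold) in the 1633 rows of 30 to 100 CPM, 0.64 (1.55-fold) in the 495 rows of 100 to 300 CPM and 0.60 (1.51-fold) in the 226 rows of 300 to 1000 CPM. In the 132 rows of 1000 CPM or more, with a median of 1711 counts per library, it was 0.58 (1.49-fold). Between the last class and that of 100 to 300 CPM, 13.6 times more counts thus narrowed the median margin by 0.057 in this fit. The narrowing was larger in a fit of only the 6 libraries compared, from 0.545 at 100 to 300 CPM to 0.427 at 1000 CPM or more. Without shStau2 replicate 3 the margins of these classes were 0.520 and 0.423. Counting error made up a median of 49.7% of the variance of the difference at 10 to 30 CPM, 27.7% at 30 to 100 CPM, 11.5% at 100 to 300 CPM and 1.09% at 1000 CPM or more. In the abundant rows nearly all of the uncertainty was the spread between libraries beyond counting error.

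A 4-fold change in either direction lay outside the 95% interval of 5474 of 5697 rows (96.1%). A 2-fold change was excluded in 2108 rows (37%), and a 1.5-fold change in 50 rows (0.878%). The share for a 2-fold change climbed from 0 of 301 rows under 10 CPM, through 511 rows (17.6%) at 10 to 30 CPM and 918 (56.2%) at 30 to 100 CPM, to 368 (74.3%) at 100 to 300 CPM, 188 (83.2%) at 300 to 1000 CPM and 123 (93.2%) at 1000 CPM or more. Even in that most abundant class a 1.5-fold change was excluded in only 16 of 132 rows (12.1%). Rows with a 2-fold change excluded held 64.4% of the filtered counts of the 6 libraries, or 83.4% without the most abundant row. That row, at -0.37 log2 units with an interval of -1.02 to 0.27, just failed to exclude a 2-fold fall.

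Each direction taken alone was bounded more often. A 2-fold rise was excluded in 3781 rows and a 2-fold fall in 3594. Of the 132 rows at 1000 CPM or more, 130 excluded a 2-fold rise and 125 a 2-fold fall. Of the 1984 rows whose margin was under 1 but whose interval still reached past 2-fold, 1028 reached past a rise and 956 past a fall. These intervals hold for 1 row at a time. When the exclusion of a 2-fold change was instead tested with 2 one-sided tests per row and Benjamini-Hochberg adjustment over all rows, it held in 987 rows (17.3%), of which 108 were at 1000 CPM or more (81.8% of that class) and 57 at 10 to 30 CPM (1.96%). The same test for 1.5-fold held in 0 rows.

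These bounds changed with the libraries in the fit. Leaving out 1 of the 6 compares 2 libraries with 3, which at a given spread widens the intervals whichever library is left out. Those fits tested 6154 to 6322 rows. With 1 library left out, a 2-fold change was excluded in 1127, 1184 and 1341 rows without shControl replicate 1, 2 or 3, and in 1188, 1350 and 1434 rows without shPum2 replicate 1, 2 or 3. A fit of only the 6 libraries compared excluded it in 2653 of 5240 rows (50.6%), and in 98.5% of rows at 1000 CPM or more. Without shPum2 replicate 1 that class stood at 72.7% and the class of 10 to 30 CPM at 6.56%. Over the 6 fits that left out 1 library these shares ran from 72.7% to 91.6% and from 3.54% to 6.56%. Leaving shStau2 replicate 3 out of the shared fit gave 2857 of 6334 rows (45.1%). The order of the classes was the same in these fits.

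**Figure D2:**
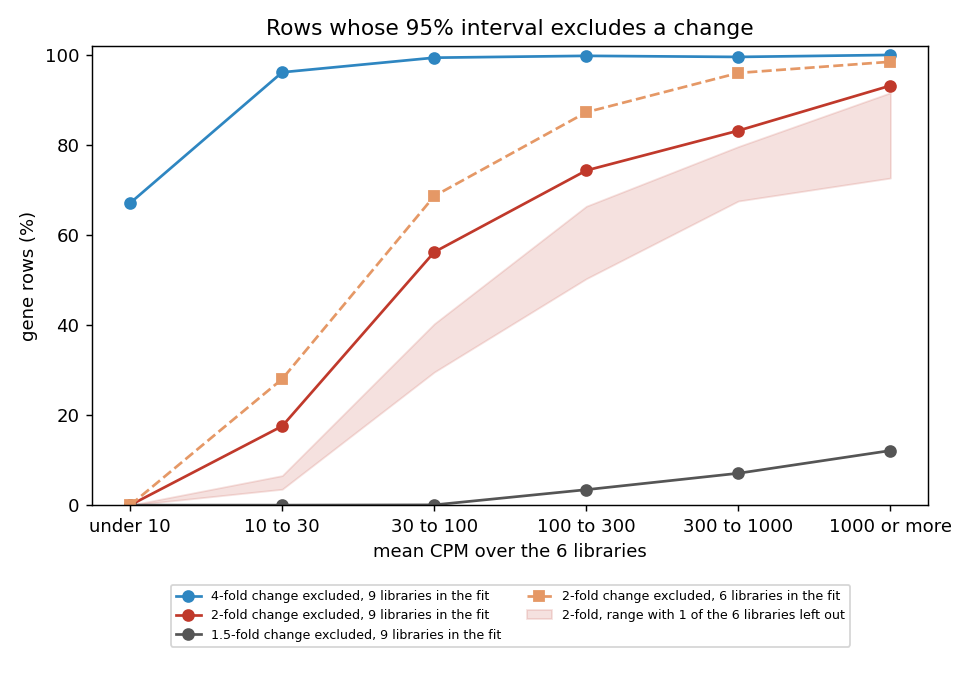
Share of gene rows (vertical axis, %) whose 95% interval of shPum2 minus shControl excludes a 1.5-, 2- or 4-fold change in either direction, by mean CPM over the 6 libraries. The 2-fold line climbs from 0 to 93.2%, the dashed line is the fit of the 6 libraries alone, and the shaded band is the range when 1 of the 6 is left out.

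The change that a row would have needed in order to be called can be read from the same standard errors. If it were the only call among 5697 rows, a row at 1000 CPM or more needed a median change of 1.74 log2 units (3.33-fold), and a row at 10 to 30 CPM 2.87 (7.31-fold). Under 10 CPM the median was 4.03 (16.4-fold). The observed differences were far smaller in most rows: their median size was 0.12 log2 units at 1000 CPM or more and 0.27 at 10 to 30 CPM. Only 86 rows differed by 2-fold or more, 32 higher and 54 lower in shPum2. Of these, 77 lay under 30 CPM, where the margin itself was close to 2-fold or wider. No row at a mean of 1000 CPM or more differed by as much (0 of 132), the extremes there being a rise of 0.48 and a fall of 0.84 log2 units in the estimates. The classes use the mean over both groups, so a row above 1000 CPM in shControl that falls can lie in a lower class. ENSRNOG00000013552, described below, was at 1261 to 1320 CPM in shControl, and its difference was -2.37 log2 units.

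**Figure D3:**
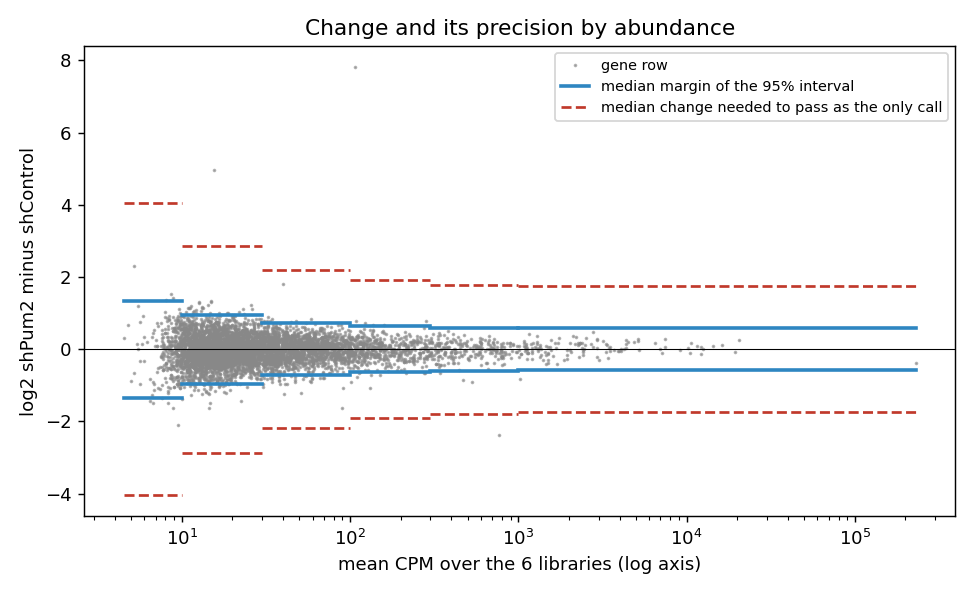
Log2 difference of shPum2 minus shControl for each of 5697 gene rows against mean CPM (log axis), with the median margin of the 95% interval (solid lines) and the median change needed to pass as the only call (dashed lines) in each abundance class. The row at 7.81 passed. The rows at 4.97 and at -2.37 lie beyond the dashed lines of their classes without passing, since their own standard errors were larger.

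Of the rows nearest to a change, only the first 2 in each direction are identified here, since identifiers without names say little. The row that rose, ENSRNOG00000052063, had 1, 1 and 0 counts in the shControl libraries and 183, 171 and 199 in the shPum2 libraries. It was thus nearly absent from every control and at a like level in all 3 shPum2 libraries, replicate 1 included (0.776 ± 0.672 against 214 ± 11.2 CPM, SD, n = 3 each). It was 264 times as abundant in shPum2 (95% interval 72.7 to 2185, counting error only, edgeR adjusted p = 3.53e-06). The 95% interval of the fit, which includes the spread between libraries, ran from 55.6-fold to 1257-fold. The row was called in the main fit and in all 15 alternatives, with an adjusted p of at most 0.048, in limma-voom. The alternatives refit the same libraries, so their agreement is not separate support. In shStau2 it had 1, 9 and 6 counts, and shPum2 exceeded shStau2 by 5.02 log2 units (edgeR adjusted p = 4.11e-05). That test reuses the shPum2 libraries on which the row was chosen. The row also passed the filter on low counts through those libraries alone.

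The second row nearest to a rise, ENSRNOG00000007539, had 2, 0 and 0 counts in shControl and 48, 16 and 12 in shPum2. The groups did not overlap, and replicate 1 held 63.2% of the shPum2 counts (0.781 ± 1.35 against 30.1 ± 24.7 CPM, SD, n = 3 each). It was 36.3 times as abundant (95% counting interval 9.70 to 305) and missed the threshold (edgeR adjusted p = 0.0997). The 95% interval of the fit, which includes the spread between libraries, ran from 5.27-fold to 260-fold. The ratio was 19.6 (counting interval 4.94 to 170) without shPum2 replicate 1 and 23.5 (6.30 to 198) without shControl replicate 2. Without shControl replicate 1 the controls left were at 0, and against a floor of 3 counts over that group the row was at least 15.8-fold higher. It passed in 6 of 15 alternatives, among them no filter (2.8e-08), the fit of 6 libraries (0.032), the fits without shStau2 replicate 3 (0.013) or shPum2 replicate 3 (0.029) and DESeq2 (0.023, all adjusted p). Its adjusted p was 0.656 without shPum2 replicate 1 and highest, at 0.9995, in limma-voom. In shStau2 it had 3, 3 and 1 counts, so it too passed the filter on low counts through its shPum2 libraries alone. The difference between the hairpin groups was 3.37 log2 units in favour of shPum2 (edgeR adjusted p = 0.040). Here too the test reuses the shPum2 libraries on which the row was chosen.

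The row nearest to a fall, ENSRNOG00000013552, had the largest difference among rows of 300 CPM or more. It stood at 1261, 1286 and 1320 CPM in shControl and at 473, 87.1 and 186 CPM in shPum2, from 987 to 1113 and 74 to 389 counts. The controls were within 59.1 CPM of each other, whereas the shPum2 libraries spread over a wide range below them, with replicate 1 nearest to the controls (1289 ± 29.7 against 249 ± 201 CPM, SD, n = 3 each). The log2 difference was -2.37 (SE 0.48, interval -3.39 to -1.36), and the edgeR adjusted p was 0.42. It passed in 7 of 15 alternatives, among them no filter (1.27e-08), the fit of 6 libraries (0.032), the fits without shStau2 replicate 3 (0.0092) or shPum2 replicate 1 (0.011, at -3.23 log2 units), DESeq2 (0.0021) and limma-voom with quality weights (0.00034, all adjusted p). Its adjusted p was highest, at 0.9999, without shPum2 replicate 2.

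The same row was at 572, 418 and 154 CPM in shStau2, also below every control, at -1.75 log2 units from shControl (edgeR adjusted p = 0.13). The direct difference of shPum2 from shStau2 was -0.62 (adjusted p = 0.68). Both comparisons with shControl use the same control libraries, so their agreement in sign is not independent.

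The second row nearest to a fall, ENSRNOG00000004320, stood at 159, 203 and 170 CPM in shControl and at 96.1, 71.8 and 85.4 CPM in shPum2. All shPum2 libraries were below all controls with a like spread in the 2 groups (178 ± 22.9 against 84.5 ± 12.2 CPM, SD, n = 3 each). The log2 difference was -1.07 (SE 0.27, interval -1.64 to -0.50). It passed neither in the main fit (edgeR adjusted p = 0.999) nor in any of the 15 alternatives, the lowest adjusted p being 0.091 with limma-voom and quality weights. At its abundance a 2-fold difference lies well under the 3.75-fold that a single call would need. In shStau2 it was lower still, at 29.8, 37.1 and 43.0 CPM, a log2 difference of -2.28 from shControl that passed (adjusted p = 0.0012). The difference of 1.21 between shPum2 and shStau2 missed the threshold (adjusted p = 0.057).

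**Figure D4:**
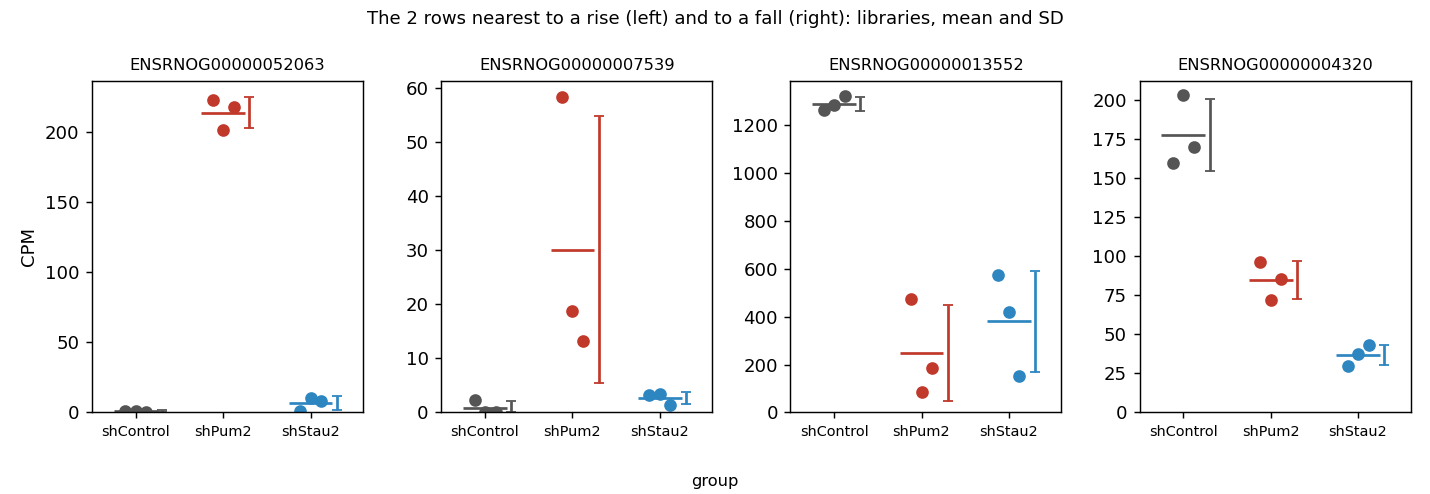
CPM of the 2 rows nearest to a rise and the 2 nearest to a fall, 1 point per library in shControl, shPum2 and shStau2, with the group mean (horizontal line) and SD (bar at the right, ended at 0 where it would reach below). Every shPum2 library lies above every control in the first 2 panels and below every control in the last 2.

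The next 8 rows in each direction had unadjusted p-values of 0.0062 to 0.017 on the rising side and 0.0038 to 0.011 on the falling side, and an adjusted p of 0.999 each. Their differences were 0.84 to 1.80 log2 units upward and 0.91 to 2.10 downward. The groups were fully separated in 5 and in 7 of the 8, against 483 of all 5697 rows (8.48%). Rows chosen for small p-values in the same libraries tend to be separated, so this count adds no support. Under 30 CPM lay 6 and 5 of the 8. In 1 of the rising rows, described after its values were seen, a single library made the difference: it had 14, 15 and 15 counts in shControl and 13, 19 and 135 in shPum2. The 2 lists of 10 nearest rows were not stable. Leaving out 1 of the 6 libraries kept 3 to 6 of the 10 rising rows and 4 to 7 of the 10 falling rows among the nearest 10, and DESeq2 kept 9 and 8.

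Most rows of the files lie outside these bounds. Of 32883 rows, 16752 (50.9%) had 0 counts in all 6 libraries. Such a count allows up to 3 counts over the 3 libraries of a group, or 1.14 CPM of all gene counts in either group, so any change below that level was not detectable. A further 5347 untested rows had 1 to 9 counts over the 6 libraries, 3443 had 10 to 29, 1626 had 30 to 59 and 18 had 60 or more. Counting error alone sets a limit there: 10 counts split evenly between the groups give an interval of 0.231 to 4.37 for the ratio, and 40 counts one of 0.513 to 1.97 (95% intervals, counting error only).

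Rows that were present in one group and at 0 in the other were few. With 0 counts in shControl and at least 10 in shPum2 there were 5 rows, none of them in the test (0 of 5), at 13 to 27 counts. The highest of them held all of its 27 counts in shPum2 replicate 3. In the opposite direction there were 0 rows. Another untested row had 0, 1 and 0 counts in shControl and 25, 12 and 10 in shPum2, 47.2 times as many per gene count (95% counting interval 8.07 to 1904), and 3, 6 and 2 counts in shStau2. It was picked as the untested row with the most shPum2 counts at 3 or fewer control counts. The interval does not allow for that choice. Of the 8 alternatives that tested it, 3 called it: no filter (2.12e-05), the fit of 6 libraries (0.032) and the fit without shStau2 replicate 3 (0.026, all edgeR adjusted p). The other 5, each without 1 of the 6 libraries, did not (adjusted p from 0.12 to 0.82). An untested row uneven in the opposite direction had 9, 8 and 7 counts in shControl and 2, 1 and 0 in shPum2. That was 8.04 times as many per gene count in shControl (95% counting interval 2.44 to 41.7). In shStau2 it had 2, 5 and 2 counts.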

How the data were processed

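The authors deposited raw read counts, 1 file per library, with 32883 gene rows and 4 rows that name no gene, which hold 97.9% to 98.2% of the reads and were left out of library sizes and tests. The submitters' processing notes name bcl2fastq 2.19.1.403 and STAR 2.6.1a. Build, annotation release and counted strand: not given in the sources used here. Rows were kept by filterByExpr in edgeR 4.0.16 (R 4.3.3), scaled with TMM and fitted by quasi-likelihood with 1 coefficient per group over all 9 libraries. P-values were two-sided and Benjamini-Hochberg adjusted. The 95% intervals used the unshrunken coefficient, a standard error from the Fisher information and the squeezed quasi-dispersion. The procedure was also run on simulated counts with dispersions estimated from these data and libraries drawn independently. Such counts hold no outlying library, so they cannot test its effect on the intervals, and no outcome is given here. Abundance classes used the mean CPM of the 6 libraries compared. The rows named were the 2 smallest p-values in each direction. Alternatives were RLE and upper-quartile scaling, no filter, the 6 libraries alone, a replicate block, limma-voom (limma 3.58.1) with and without quality weights, DESeq2 1.42.0, and libraries left out in turn. The comparison, classes and rules were chosen with earlier results of these data known. Gene lists were written but not used, since no identifier had a symbol. No sequence is printed, because no row could be matched to the reference sequences.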

Additional observations from a re-analysis of the deposited data

Results flagged for a closer look

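For 2 of the rows described, the shPum2 level differed from the shStau2 level in the direct test between the hairpin groups (edgeR quasi-likelihood test). Both rows were chosen for their small p-values in shPum2 against shControl, and the direct test reuses those shPum2 libraries. Its p-values thus do not allow for that choice. Both rows also passed the filter on low counts through their shPum2 libraries alone. ENSRNOG00000052063 exceeded its shStau2 level in shPum2 by 5.02 log2 units (adjusted p = 4.11e-05), and all 3 shPum2 libraries lay above all 3 shStau2 libraries. ENSRNOG00000007539 was higher by 3.37 log2 units (adjusted p = 0.040), also in all 3 libraries, from 76 counts against 7. Against shControl this row was not called (edgeR adjusted p = 0.0997).

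A row that the filter on low counts kept out of the test had 47 counts in shPum2 against 1 in shControl. It was picked as the untested row with the most shPum2 counts at 3 or fewer control counts. The contrast thus comes from the values that picked the row. Of the 8 alternatives that tested it, 3 called it and 5 did not. It was present in all 3 shPum2 libraries.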

How the results depend on the processing

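The count of 1 row called stayed at 1 with RLE, upper-quartile scaling and limma-voom. It was 8 with no filter, 4 in the fit of 6 libraries, 3 with the replicate number as a block, 3 with DESeq2 and 2 with limma-voom and quality weights. It ran from 1 to 2 when 1 of the 6 libraries was left out and was 4 without shStau2 replicate 3. With the block the 2 added calls were ENSRNOG00000007539 (adjusted p = 0.0086) and ENSRNOG00000013552 (0.020). Same-numbered libraries of the groups did not deviate together across rows (correlations of -0.21, -0.0019 and 0.11), and 1 of the 3 control libraries correlated best with its own number, so the numbers were not taken as pairs. The number of rows excluding a 2-fold change ran from 1127 to 1434 with 1 of the 6 libraries left out, a step that at a given spread widens the intervals. It reached 2857 without shStau2 replicate 3, and was 987 with adjustment over all rows. In the other 8 alternatives it lay between 2078 and 2804. The median margin over all rows was 1.59 with no filter, which adds rows of few counts, and 0.70 to 1.01 in the other alternatives. No named row changed sign in any alternative. The scalings moved the median of all rows by at most 0.017 log2 units. Depth bears more on the rows under 30 CPM than on more abundant ones. Even there, counting error gave a median of only 49.8% of the variance under 10 CPM and 49.7% at 10 to 30 CPM. The spread between libraries bears most on rows above 100 CPM, where the class medians for counting error were 11.5% or less.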
